A study of Mus musculus with 6 samples.

Results

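Prss23 is the gene of a secreted serine protease on mouse chromosome 7, and Prss23os is an antisense gene annotated on the opposite strand of the same locus. They are 2 of the 23407 genes with a value in the deposited table, and both were taken by gene symbol. The pair was chosen by its normalised reads in these libraries, since Prss23os had been seen to be higher in TSP2KO than in WT, so the difference of either gene between the groups, and of their ratio, is described here without a test. The study measured bulk RNA in primary dermal fibroblasts of 12-week-old mice, cultured from dorsal skin, with 3 WT and 3 TSP2KO libraries. TSP2 is thrombospondin-2, a secreted matricellular protein encoded by Thbs2. For both groups, skin was held in trypsin, its dermis was broken up and treated with collagenase IV, and the cells grew for 3 to 5 days in medium with fetal bovine serum. RNA was taken at passage 1. Libraries were made with a strand-keeping poly(A) kit. The labels do not describe the TSP2KO allele or the strain, and do not tie the replicates to individual mice, so each p-value reflects library-to-library spread, which may be technical.

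PRSS23 is a secreted member of the trypsin-fold serine proteases, which cut peptide bonds with a catalytic triad of histidine, aspartate and serine. It has been studied in the ovary, in estrogen-responsive cells and in the endothelial-to-mesenchymal transition of the developing heart valve. The name Prss23os stands for opposite strand. A natural antisense transcript of this kind is copied from the same stretch of DNA in the other direction, so its RNA is complementary to the sense RNA wherever their exons overlap.

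The overlap lies on the protease's coding sequence. In build mm10 with GENCODE M21 models, Prss23 (ENSMUSG00000039405.7) spans chr7:89507783-89527187 on the minus strand with 8 annotated transcripts. Prss23os (ENSMUSG00000030623.4) spans chr7:89510007-89511873 on the plus strand with 4 transcripts and is annotated as an antisense gene. The exons of all transcripts together cover 3767 bases for Prss23 and 1592 bases for Prss23os, and 864 bases are exonic in both. That is 54.3% of the Prss23os exon bases and 22.9% of those of Prss23. Of the shared bases, 853 lie opposite the Prss23 coding sequence, which is contained in the last exon (chr7:89507783-89510870), so that 74.4% of the 1146 coding bases face an exon of Prss23os. The annotated start of Prss23os lies 7579 bases downstream of the start of the main Prss23 transcript, inside the gene and not at its promoter. The remaining 728 exon bases of Prss23os lie outside the exons of Prss23.

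**Figure D1:**
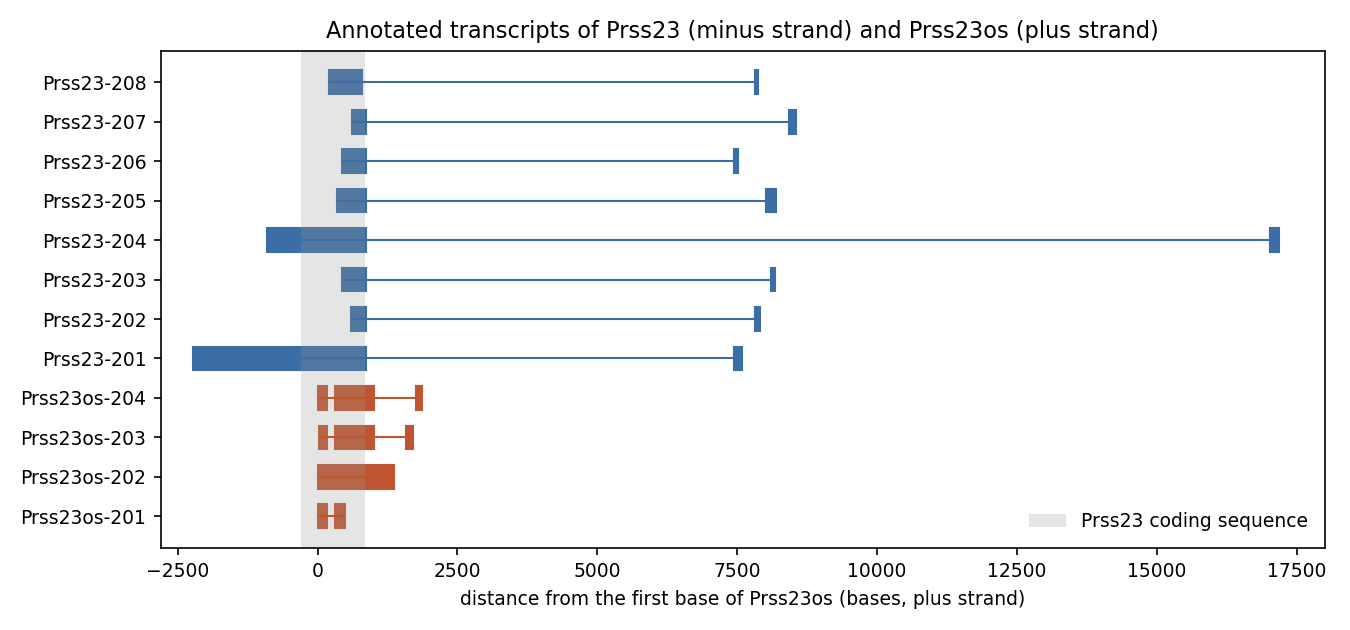
Annotated exons (boxes) and introns (lines) of the 8 Prss23 and 4 Prss23os transcripts against distance in bases from the first base of Prss23os along the plus strand, with the Prss23 coding sequence shaded. The Prss23os exons face the last Prss23 exon and its coding sequence, and the main Prss23 transcript starts 7579 bases away.

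The first 60 bases of the Prss23 coding sequence, at chr7:89510800-89510859, are shown as the sense strand reads them and as Prss23os reads the same bases, because this is where each transcript is the complement of the other. Capitals mark the start codon in the sense line and its complement in the antisense line. The other line gives 20 bases on each side of a splice junction of Prss23os, that of its first annotated transcript, between an exon ending at chr7:89510163-89510182 and one starting at chr7:89510318-89510337, with the second exon in capitals. That junction joins bases that are continuous in the last exon of Prss23, so the joined sequence belongs to the spliced antisense transcript.
Prss23 sense, 5′ to 3′: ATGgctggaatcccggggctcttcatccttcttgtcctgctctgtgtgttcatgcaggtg
Prss23os antisense, 5′ to 3′: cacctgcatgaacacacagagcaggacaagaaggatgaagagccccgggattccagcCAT
Prss23os junction, 5′ to 3′: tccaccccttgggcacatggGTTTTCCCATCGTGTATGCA

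The main Prss23 promoter, from RefSeq on GRCm38.p6, is shown because both transcripts were higher in TSP2KO while only the sense start lies here. It covers chr7:89517537-89517836 on the minus strand, 250 bases before to 50 bases after the transcription start, with GC boxes (GGGCGG) in capitals.
Prss23 promoter, 5′ to 3′: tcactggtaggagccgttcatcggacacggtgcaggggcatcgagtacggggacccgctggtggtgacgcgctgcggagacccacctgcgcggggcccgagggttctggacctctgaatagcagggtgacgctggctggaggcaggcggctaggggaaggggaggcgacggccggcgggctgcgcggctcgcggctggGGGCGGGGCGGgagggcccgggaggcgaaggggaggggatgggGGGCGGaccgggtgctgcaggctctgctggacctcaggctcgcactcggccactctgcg
Its GC content was 73.7%, against a median of 52.7% over 32851 mouse promoters of the same length, and it held 31 CpG dinucleotides against a median of 7. The GC box matched 3 times, starting at -52, -47 and -9 from the start, the first pair sharing 1 base, and 35.7% of all promoters held this motif on either strand. A Snail-type E-box (CACCTG) matched once, at -168, and 20.2% of all promoters held one. The window held 0 matches, on either strand, of the CArG box (found in 1.63% of promoters), the TEAD site GGAATG (14.7%), the AP-1 site TGANTCA (7.81%), the SMAD box CAGAC (49.6%), the full palindromic estrogen response element (0.0700%) and the TATA box TATAAA (13.6%). The window is 1 of 7 Prss23 promoters. Of the 7, 5 held a Snail-type E-box, 4 a GC box, 2 an AP-1 site and 2 a SMAD box, and 0 held the other motifs. All of these are matches of letters within a promoter window and say nothing on binding.

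Values are the authors' normalised reads per gene. From the size of 1 read in each column, the libraries held about 14776502 to 34599855 reads assigned to genes. In the library labelled WT 3, Thbs2 was 8841, far below the 122061 and 116720 of WT 1 and WT 2 and near the 4891 to 6635 of TSP2KO, so its Thbs2 level goes against its label. The table's columns were matched to the labelled samples by genotype and number alone, because the suffix that follows in each name differs between the file and the labels. Differences of Prss23 and Prss23os are therefore given with and without WT 3, and so are the limma results of other named genes where leaving it out changed a call. Summed fibroblast markers were 177156 to 335276 in WT and 137073 to 225095 in TSP2KO, with 9 of 12 tested markers lower in TSP2KO. Their mean log2 value, taken relative to WT 1 and WT 2, was -0.56 to 0.10 in WT and -1.39 to -0.93 in TSP2KO. By that measure the groups did not overlap and TSP2KO 3 was the lowest library. Summed macrophage markers were 3743 to 6544 in WT and 797 to 962 in TSP2KO, and all 16 tested markers had a negative log2 difference, while Cd163 was not among the tested ones. Summed keratinocyte markers were 588 to 43620 in WT and 651 to 15290 in TSP2KO, high in WT 3, TSP2KO 1 and TSP2KO 2. Summed endothelial markers were 722 to 6672 in WT and 691 to 2894 in TSP2KO, and were high in those same libraries. Of tested markers, 9 of 11 keratinocyte ones had a positive log2 difference and 9 of 10 endothelial ones a negative one. Summed adipocyte markers were 5527 to 6120 in WT and 1543 to 2627 in TSP2KO, without overlap. Of the 3 tested ones, 2 had a negative log2 difference and 1 a positive one. By mean log2 value the adipocyte groups overlapped, at -0.05 to 1.73 in WT and -0.52 to 0.55 in TSP2KO. Summed melanocyte and Schwann markers overlapped too, at 9727 to 20357 in WT and 9644 to 13121 in TSP2KO. The part of these other cells in the results below was not tested. In bulk RNA, fewer cells of a type and less RNA per cell cannot be told apart.

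Prss23 was an abundant transcript in every library. Its normalised reads were 3358 in WT 1, 4639 in WT 2 and 4392 in WT 3, and 12170 in TSP2KO 1, 11878 in TSP2KO 2 and 24107 in TSP2KO 3. The WT libraries lay close together, TSP2KO 3 stood above the other TSP2KO libraries, and the groups did not overlap. The WT mean was 4130 ± 679 and the TSP2KO mean 16052 ± 6978 (SD over 3 libraries each), and the lowest TSP2KO library lay 2.56-fold above the highest WT library. On the log2(value + 1) scale the TSP2KO mean was higher by 1.89 ± 0.36 (SE), or 3.71-fold. Without WT 3, the difference was 1.94. Among the 14707 genes with a mean of at least 10, the percentile of Prss23 by level was 95.7 to 97.2 in WT and 99.3 to 99.7 in TSP2KO.

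Prss23os was a low transcript in WT and a middling one in TSP2KO. It had 46.6 normalised reads in WT 1, 62.0 in WT 2 and 45.4 in WT 3, and 206 in TSP2KO 1, 204 in TSP2KO 2 and 334 in TSP2KO 3. TSP2KO 3 was again the highest library, and no TSP2KO value came near a WT value. The WT mean was 51.3 ± 9.27 and the TSP2KO mean 248 ± 74.4 (SD over 3 libraries each), with the lowest TSP2KO library 3.28-fold above the highest WT library. The log2 difference was 2.22 ± 0.27 (SE), or 4.67-fold, and 2.14 without WT 3. Its percentile of level among tested genes was 19.8 to 27.3 in WT and 48.3 to 61.0 in TSP2KO. The values stand for about 70.8 to 158 reads in WT and 359 to 375 in TSP2KO, so counting error was larger for the antisense gene than for the sense gene, which had 6521 to 27075 reads.

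Both genes were among those in which every TSP2KO library lay above every WT library, a class that held 5.9% of the 14707 tested genes, while 8.27% had every TSP2KO library below every WT library. A log2 difference above that of Prss23 was found in 105 genes (0.714%) and above that of Prss23os in 59 genes (0.401%). The rule that chose the pair used this contrast, so nothing is read from that class or from these counts.

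**Figure D2:**
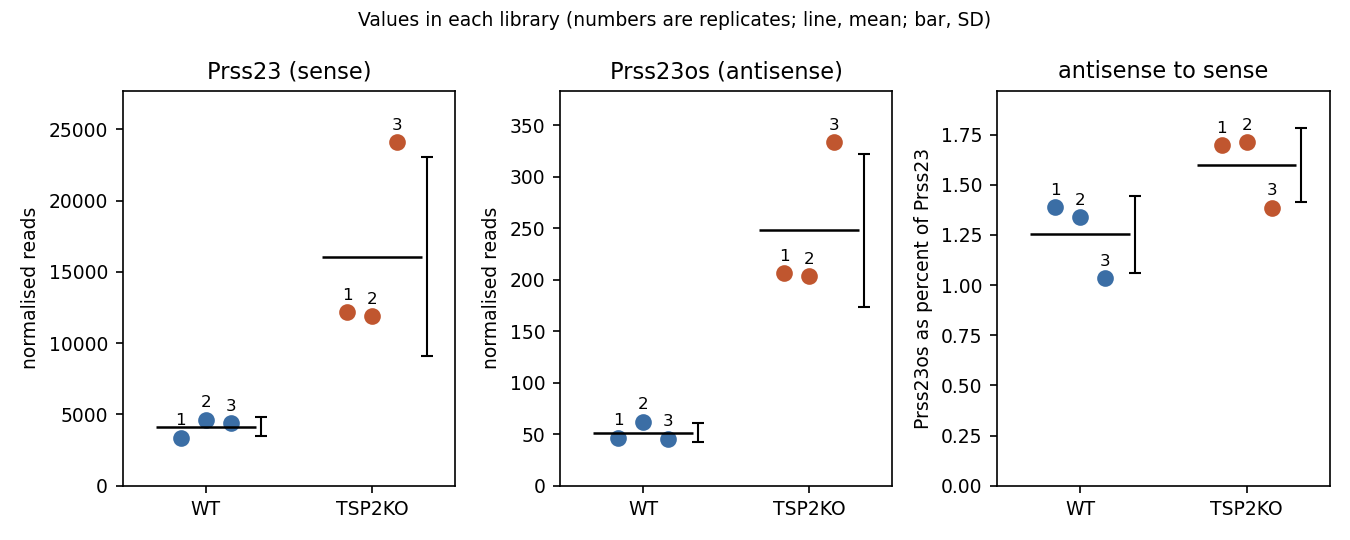
Normalised reads of Prss23 and of Prss23os, and Prss23os as a percent of Prss23, in each of the 3 WT and 3 TSP2KO libraries; numbers are replicates, lines are means and bars are SD. Both genes are separated between the groups, with TSP2KO 3 highest, whereas the ratios meet at 1.39% in WT 1 and 1.38% in TSP2KO 3.

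The antisense gene kept a small share of the sense gene throughout. Prss23os amounted to 1.39% of Prss23 in WT 1, 1.34% in WT 2 and 1.03% in WT 3, and to 1.70% in TSP2KO 1, 1.71% in TSP2KO 2 and 1.38% in TSP2KO 3. TSP2KO 1 and 2 were above all WT libraries, but TSP2KO 3 lay just under WT 1, so the groups overlapped. The share averaged 1.25 ± 0.191% over the WT and 1.60 ± 0.185% over the TSP2KO libraries (SD, 3 libraries each). The log2 ratio was higher in TSP2KO by 0.33 ± 0.17 (SE), or 1.26-fold, and by 0.20 without WT 3. Per kilobase of exon the share was 2.96 ± 0.453% in WT and 3.78 ± 0.438% in TSP2KO. The highest and lowest libraries thus differed 7.18-fold for Prss23 and 7.35-fold for Prss23os, but 1.66-fold for their ratio.

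Within a genotype the 2 genes did not always keep step. TSP2KO 3 had 1.98- and 2.03-fold the Prss23 of TSP2KO 1 and TSP2KO 2, and 1.61- and 1.64-fold their Prss23os. Among the WT libraries, WT 2 exceeded WT 1 1.38-fold in Prss23 and 1.32-fold in Prss23os. WT 3 exceeded WT 1 1.31-fold in Prss23 and was at 0.975 of it in Prss23os. Library order was the same for both genes in the 4 highest libraries, while WT 1 was lowest for Prss23 and WT 3 lowest for Prss23os.

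The antisense values carry an uncertainty over which RNA their reads came from. The kit keeps strand, but whether the authors' counting used strand is not stated in the labels or the file header. Without it reads in the 864 shared bases cannot be told apart. Whether part of the Prss23os reads came from Prss23 RNA was not tested. None of the 6 Prss23os values was a whole number of reads within 0.02. Of values between 20 and 200 reads, 61.8% to 68.2% per library were whole among the 5537 genes that share exon bases with an opposite-strand gene only, the class of both Prss23 and Prss23os. Among 15318 genes with no exon overlap, 75.8% to 78.6% were whole, and among 1709 genes overlapping one on the same strand, 45.2% to 53.3%.

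Other genes named for the opposite strand of a sense gene gave a loose yardstick for the pair. In the table, 136 genes carry the name of a sense gene with the ending os or a numbered form of it. All lie on the opposite strand, and 26 of these pairs had both genes tested. Exon overlap was found in 12 of the 26, and 14 of the os genes were annotated as antisense but 6 as protein-coding. The 26 are thus a mixed set, not all like Prss23 and Prss23os. The differences of the pair had the same sign in 13 of 26. Prss23 had the highest sense level and was the only sense gene of the 26 with a log2 difference above 1. Prss23os had the second-highest antisense difference, after Pard3bos3 at 2.24, and nothing is read from these ranks because the rule used this contrast. Its share of the sense gene, 1.48% over all libraries, was the second-lowest of the 26, whose median was 27.4%. The log2 ratio of Prss23os to Prss23 ranged over 0.70 across the 6 libraries, against a median of 1.38 for these pairs. By comparison, Dnm3os, the host transcript of microRNAs on the strand opposite Dnm3, averaged 2515 normalised reads against 165 for Dnm3, and their log2 differences were -0.04 and -1.14. Without Prss23os, 0 of 28 tested os genes of this kind passed adjusted p under 0.05 in limma in either direction. At an unadjusted p under 0.05, 2 were higher and 0 lower, against 3.66% and 6.09% of all tested genes. The median log2 difference of the 28 was 0.02, against -0.01 over all tested genes.

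A wider set, chosen after values had been seen, took antisense genes by annotation and by exons opposite a coding gene's exons. Of 744 such pairs 111 had both genes tested, and their differences had the same sign in 61 (55.0%). Prss23 had the third-highest sense level and a ratio below the median share of 7.09%. In 8 pairs the sense difference was above 1 on the log2 scale, and in 6 of these the antisense difference was too. Both counts include Prss23 and Prss23os, which the rule chose by this contrast, so nothing is read from them. In 9 pairs the sense difference was below -1, and the antisense difference was below 0 in 6 of them and below -1 in 4. Tagln, a smooth muscle actin-binding protein, had a log2 difference of 2.62 with 2.30 for its antisense gene Gm48529. Itga8, an integrin chain, had 1.76 with 2.48 for E030013I19Rik. Ltbp2, a microfibril protein, had 1.88 with 1.28 for D030025P21Rik, and Mylk, myosin light chain kinase, had 1.85 with 1.12 for E130310I04Rik. Of these, only Tagln and Gm48529 had a ratio that varied less across libraries than that of Prss23, with a log2 range of 0.50. Over all 111 pairs the range for Prss23, 0.70, was at rank 16 from the lowest, and the median was 1.51. Mean levels were 27.6 for E030013I19Rik, 15.6 for D030025P21Rik and 15.5 for E130310I04Rik, against 150 for Prss23os. The part of low level in the wider ranges was not tested. In limma's test of all 6 libraries the adjusted p was 0.110 for Tagln, 0.111 for Gm48529, 0.109 for Itga8 and 0.128 for E030013I19Rik, so these did not pass. Without WT 3 the limma adjusted p was 0.0187 for Tagln, 0.0206 for Gm48529, 0.0292 for Itga8 and 0.0377 for E030013I19Rik, and also 0.0246 for Ltbp2 and 0.0383 for Mylk, while D030025P21Rik (0.098) and E130310I04Rik (0.188) did not pass.

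**Figure D3:**
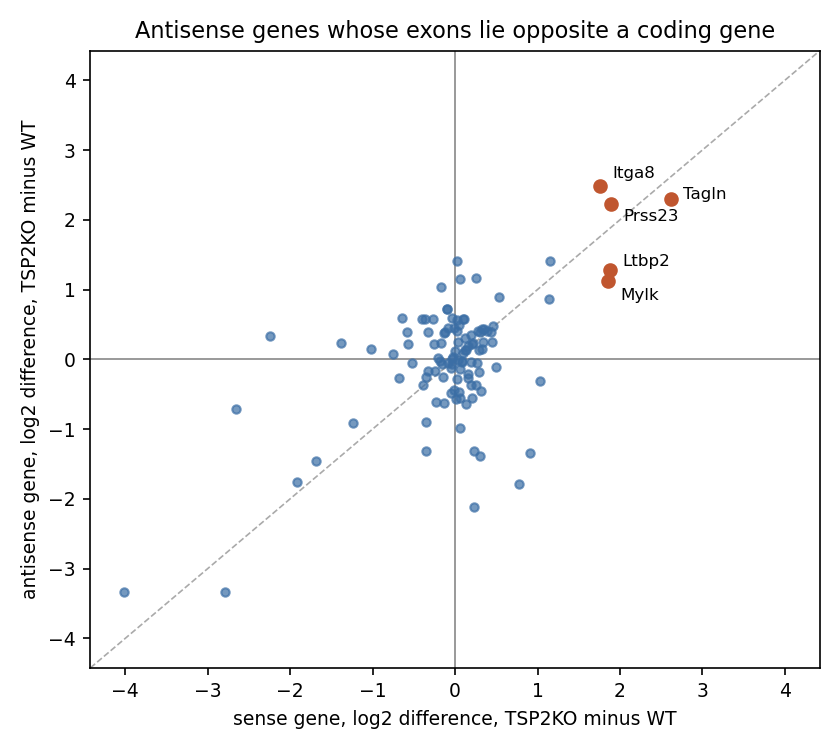
Log2 differences, TSP2KO minus WT, of the antisense gene against the sense gene in the 111 tested pairs whose exons face each other; the dashed line marks equal differences. Most pairs lie near 0, and Prss23 lies with Itga8, Tagln, Ltbp2 and Mylk (larger orange points) where both genes were higher.

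No tested gene beside Prss23 on the chromosome was called with all libraries. Of 25 genes within 1 Mb, 15 were tested, 0 passed limma's adjusted p under 0.05 and 1 (Sytl2, lower) had an unadjusted p under 0.05. The background over all 14707 tested genes was 0 genes higher (0.0%) and 9 lower (0.0612%), with 538 higher (3.66%) and 896 lower (6.09%) before adjustment, at p under 0.05. The nearest tested gene, the pseudogene Gm2546 at 80.5 kb, had a log2 difference of 0.35 (limma adjusted p = 0.839). Fzd4, a Wnt and norrin receptor at 94.6 kb, had 84.5, 56.5 and 96.9 normalised reads in WT and 63.2, 79.4 and 39.2 in TSP2KO. These groups overlapped, and its log2 difference was -0.40 (limma adjusted p = 0.776). Tmem135, a peroxisomal and mitochondrial membrane protein, had -0.55, and Me3, a mitochondrial malic enzyme at 105 kb, had 0.88 with overlapping groups. Farther out, Hikeshi, a nuclear import carrier of heat-shock proteins, had 0.08 and Eed, a Polycomb subunit, 0.22. Picalm, a clathrin adaptor at 603 kb, was the single tested neighbour with every TSP2KO library above every WT library, at 0.52. The median over the 15 genes was 0.07. Without WT 3, when 2.43% of tested genes were called higher and 2.75% lower in limma, the pseudogene Rps13-ps2 was called higher (1.14, adjusted p = 0.0296) and Sytl2 lower (-3.02, adjusted p = 0.0160). These 2 and Picalm were singled out after their values were seen.

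**Figure D4:**
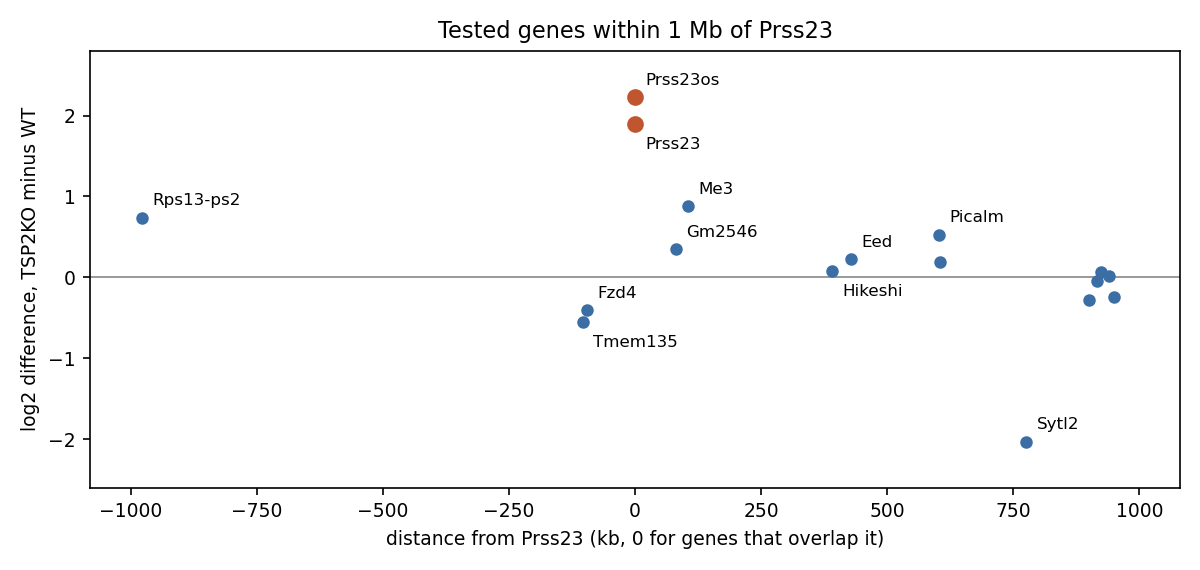
Log2 difference, TSP2KO minus WT, of the 15 tested genes within 1 Mb of Prss23, and of Prss23 and Prss23os, against distance from Prss23 in kb. Prss23 at 1.89 and Prss23os at 2.22 stand above their neighbours, which lie between Sytl2 at -2.03 and Me3 at 0.88.

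Prss23 was the leading serine protease of the trypsin fold in TSP2KO by level per kilobase of exon. The comparison list held 48 genes in the table, Prss23 included, among them F3 and Reln, which are not proteases of this fold. The level of Prss23 was 1096 ± 180 normalised reads per kb in WT and 4261 ± 1852 in TSP2KO. Spreads here and for the next genes are SD over 3 libraries per group. In WT the level was 2732 ± 947 for Masp1, a protease of the complement lectin pathway, 1489 ± 493 for C1s1, a complement C1s protease, and 1129 ± 484 for Plat, tissue plasminogen activator. Prss23 came next in that order, and its level differed from those of C1s1 and Plat by less than their SD. In TSP2KO the next level was that of Masp1 at 1241 ± 350, below every TSP2KO value of Prss23. Between the groups, limma called neither Masp1 (adjusted p = 0.333) nor Plat (adjusted p = 0.214) with all libraries, and both lower without WT 3 (adjusted p = 0.0395 and 0.0168). Prss35, the paralogue of Prss23, was far lower, with 157, 84.7 and 43.6 normalised reads in WT and 74.7, 81.7 and 67.7 in TSP2KO. Its groups overlapped and its log2 difference was -0.16 ± 0.45 (SE, limma adjusted p = 0.945).

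The other genes of the list differed in both directions, with more lower than higher in TSP2KO. Leaving Prss23 out, 26 of the 47 listed genes in the table were tested, with a negative difference in 16 and a positive one in 10 (48.5% of all tested genes had a positive one), and a median of -0.18 against -0.01 over all genes. None passed adjusted p under 0.05 in limma with all libraries. At an unadjusted p under 0.05, 1 was higher and 8 were lower, against 3.66% and 6.09% of all tested genes. Every TSP2KO library lay below every WT library for 9 and above for 1, against 8.27% and 5.9% of all tested genes. The list was not tested as a set. Without WT 3, limma called 1 higher and 5 lower, against 2.43% and 2.75% of all tested genes. The higher one was Corin, the protease that activates atrial natriuretic peptide and marks dermal papilla cells, with 24.7, 15.7 and 34.6 normalised reads in WT and 113, 145 and 162 in TSP2KO. Its groups were far apart, with a log2 difference of 2.49 ± 0.35 (SE, limma adjusted p = 0.0974, and 0.0144 without WT 3). C1s1 had 5523, 5572 and 2878 in WT and 711, 1520 and 1056 in TSP2KO, at -2.09 (limma adjusted p = 0.123, and 0.0168 without WT 3). C1ra, which activates C1s in the complement C1 complex, had -1.54 (limma adjusted p = 0.143, and 0.0122 without WT 3).

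Serine protease inhibitors were divided in sign, with more lower than higher among those that separated the groups. Of 27 tested members, 12 had positive and 15 negative differences, and the median was -0.23, or 0.06 without WT 3, so its sign depended on that library. None passed limma's adjusted p under 0.05 with all libraries. Before adjustment 2 were higher and 7 lower, against 3.66% and 6.09% of all tested genes. Every TSP2KO library lay above every WT library for 2 and below for 6, against 5.9% and 8.27% of all tested genes. Without WT 3, limma called 2 higher and 1 lower, against 2.43% and 2.75% of all tested genes. Kazald1, a secreted protein with a Kazal-type domain, had 18.03, 14.1 and 23.7 normalised reads in WT and 83.9, 77.2 and 138 in TSP2KO. As for Prss23, TSP2KO 3 was the highest and the groups were apart, at 2.34 (limma adjusted p = 0.109, and 0.0192 without WT 3). Serping1, the C1 inhibitor, had 11666, 8819 and 5440 in WT and 2165, 3076 and 2148 in TSP2KO, at -1.76 (limma adjusted p = 0.126, and 0.0138 without WT 3). Serpinb9b, an intracellular serpin, had 1.70 (limma adjusted p = 0.162).

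Receptors that sense extracellular serine proteases were not called. Of 11 tested protease-activated receptors and G proteins 0 passed in limma, with or without WT 3. Before adjustment 1 was higher and 2 lower, against 3.66% and 6.09% of all tested genes. F2rl1, the receptor activated by trypsin-like proteases, had 336, 321 and 669 normalised reads in WT and 222, 168 and 53.4 in TSP2KO. All TSP2KO libraries lay below WT, TSP2KO 3 lowest, at -1.71 ± 0.56 (SE, limma adjusted p = 0.362). Rhoa, a small GTPase downstream of these receptors, had 0.49 (limma adjusted p = 0.407).

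Among mesenchymal transition factors and targets, the setting in which PRSS23 has been described in valve development, 14 of 23 tested members had positive differences and the median was 0.12. With all libraries 0 passed in limma. Before adjustment, at p under 0.05, 5 were higher and 1 lower, against 3.66% and 6.09% of all tested genes. Without WT 3, limma called 3 higher and 1 lower, against 2.43% and 2.75% of all tested genes. The lower one was Zeb1, at -0.82 without WT 3 (limma adjusted p = 0.0378) and -0.59 with all libraries (limma adjusted p = 0.448). Hey2, a Notch-induced repressor, had 12.4, 11.0 and 13.5 normalised reads in WT and 33.9, 53.1 and 56.1 in TSP2KO, at 1.85 (limma adjusted p = 0.160, and 0.0423 without WT 3). Hey1, its relative, had 2.36 (limma adjusted p = 0.175, and 0.0235 without WT 3). Tgfb3 and Tgfb2, ligands of the TGF-beta receptors, had 1.22 and 0.91 (limma adjusted p = 0.172 and 0.222). Of 12 tested sex steroid receptors and partners 0 passed in limma, and the median was -0.17. At an unadjusted p under 0.05, 1 was higher, against 3.66% of all tested genes. That gene was Gper1, a G-protein-coupled estrogen receptor, with 105, 40.4 and 86.0 normalised reads in WT and 98.8, 303 and 288 in TSP2KO, so TSP2KO 1 lay within WT (1.51, limma adjusted p = 0.407). Greb1, an estrogen-induced gene, had -1.26 (limma adjusted p = 0.544).

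Of the lists examined, contractile genes held the largest share of members that separated in the same direction as Prss23. Every TSP2KO library lay above every WT library for 18 of 23 members, against 5.9% of all tested genes, and 21 had positive differences with a median of 1.33. In limma with all libraries 0 passed adjusted p under 0.05. At an unadjusted p under 0.05, 17 were higher, against 3.66% of all tested genes. Without WT 3, limma called 11 higher and 0 lower, against 2.43% and 2.75% of all tested genes. The list was chosen with earlier results of these data known, so nothing is read from these shares. Acta2, smooth muscle actin, had 11667, 10318 and 18292 normalised reads in WT and 53500, 56512 and 109857 in TSP2KO. TSP2KO 3 was the highest library, as for Prss23, at 2.41 ± 0.36 (SE, limma adjusted p = 0.101). Without WT 3 it was 2.66 (limma adjusted p = 0.0168). Actg2, the enteric smooth muscle actin, had 3.31 (limma adjusted p = 0.143), and 3.70 without WT 3 (limma adjusted p = 0.0257).

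The genes nearest to Prss23 in pattern were found from the root mean square difference of centred log2 values over the 6 libraries, among 11514 other genes with a mean of at least 50. Genes known only by a clone or predicted-gene name were ranked but are not named. Slmap, a membrane protein of muscle and of the STRIPAK complex, was the nearest to Prss23, at 0.15, and Prss23os was the second, at 0.24. Trpv2, a cation channel, was at rank 4 with 0.25, and Fhl1, a LIM-domain protein of muscle, Alx4, a homeodomain factor, and Trpc6, a cation channel, each stood at 0.28, at ranks 5, 6 and 7. For Prss23os the nearest gene was Prss23, at 0.24, and then came Slmap at 0.24, Fhl1 at 0.24 and Kazald1 at 0.34. Alx4 was at rank 6 with 0.36 and Reep2, an endoplasmic reticulum-shaping protein, at rank 8 with 0.38. These distances are descriptions over 6 libraries that share the same 2 groups, and any gene that separates the groups by a like amount scores low.

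Slmap had 430, 439 and 434 normalised reads in WT and 1205, 1380 and 2654 in TSP2KO, so that WT was nearly level and TSP2KO 3 again the highest. Fhl1 had 999, 803 and 841 in WT and 2946, 3308 and 6221 in TSP2KO, the same arrangement. Trpv2 had 233, 294 and 454 in WT and 817, 1020 and 1573 in TSP2KO. The log2 difference was 1.91 for Slmap (limma adjusted p = 0.110), 2.16 for Fhl1 (limma adjusted p = 0.0974) and 1.80 for Trpv2 (limma adjusted p = 0.141). Without WT 3 the limma adjusted p was 0.0295 for Slmap, 0.0225 for Fhl1, 0.0192 for Trpv2 and 0.0257 for Reep2, and 0.0678 for Alx4. In that fit limma called 2.43% of all tested genes higher. All of these named genes were taken for likeness to a pair chosen by this contrast. Low p-values follow from that choice, with or without WT 3, and nothing is read from them. Alx4 had 117, 159 and 102 in WT and 255, 365 and 613 in TSP2KO, and Reep2, in which TSP2KO 2 was the highest, had 22.1, 27.5 and 30.2 in WT and 74.7, 103 and 96.2 in TSP2KO. Thbs2 did not share this pattern in WT 3, where it was low while Prss23 and Prss23os were at the level of the other WT libraries.

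**Figure D5:**
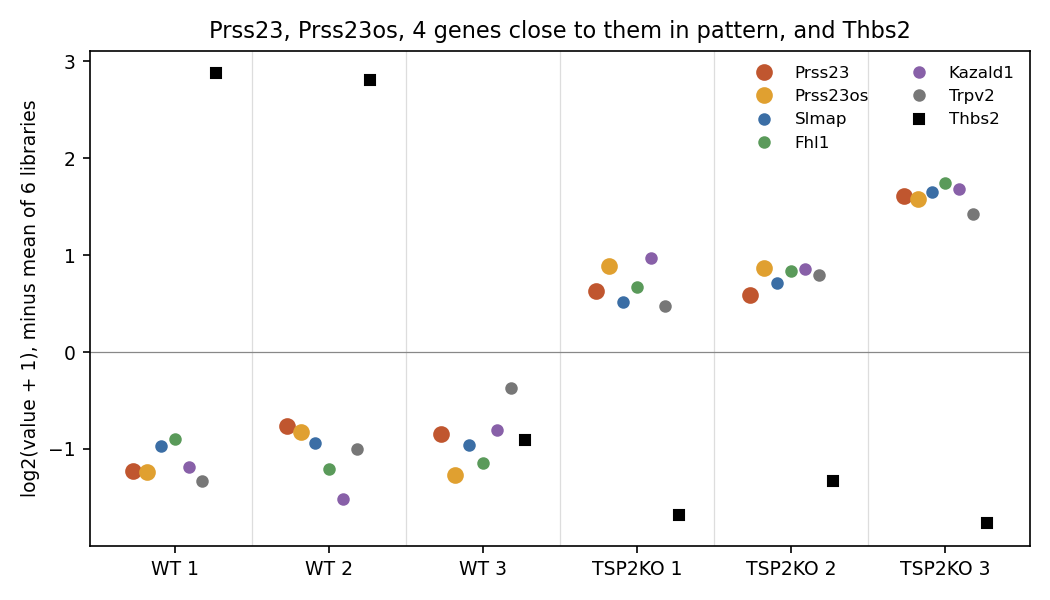
Log2(value + 1) of Prss23, Prss23os, 4 genes close to them in pattern and Thbs2 in each library, minus each gene's mean over the 6 libraries. The Prss23-like genes lie below 0 in all 3 WT libraries and highest in TSP2KO 3, while Thbs2 in WT 3 lies with TSP2KO.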

How the data were processed

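Poly(A) RNA of 3 WT and 3 TSP2KO dermal fibroblast cultures was sequenced. The submitters' processing notes name STAR, Partek and DESeq2 and the build mm10, with no role given, and the sources used here do not state the counting tool or its strand setting. The deposited values are a normalised signal per gene, on a scale the authors set. They were not whole reads for all genes (76.3% to 78.7% of values up to 200 reads were whole within 0.02), so no count model was used. Reads per library were estimated from the smallest regular step of each column.

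Genes with a mean of at least 10 (14707) were fitted on log2(value + 1) with limma 3.58.1 in R 4.3.3, with a mean-variance trend and Benjamini-Hochberg adjustment over all of them. A call needed an adjusted p under 0.05. Both genes studied passed the filter. Their differences are means over libraries with a pooled SE and no test. Stops in the table lie 1 past the last base, and after that shift 96.4% of genes matched GENCODE M21. Promoters came from RefSeq. Genes and lists were chosen with earlier results of these data known. Named genes are the 2 studied and Thbs2, the nearest by position, up to 4 of each list with the smallest p, Prss35, the 5 closest in pattern (passing over clone and predicted-gene names) and antisense pairs of high level. Masp1, Plat, Zeb1 and the wider antisense pairs were named after their values were seen. The fit was tested on simulated data. Alternatives were other pseudocounts and filters, rescaling by trimmed means (TMM), each library left out and the replicate number as a block.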

Additional observations from a re-analysis of the deposited data

How the results depend on the processing

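Prss23, Prss23os and their ratio kept a positive log2 difference under every alternative run. For either gene the groups did not overlap, so leaving out a library or changing the pseudocount could not turn the sign. The rule used this contrast, so nothing is read from the kept sign. Leaving out 1 library at a time gave 1.56 to 2.07 for Prss23, 1.99 to 2.37 for Prss23os and 0.20 to 0.44 for the ratio, and a pseudocount of 10 gave 0.16 for the ratio. The number of genes called by limma depended on WT 3. With all libraries 0 were higher and 9 lower, and leave-one-out fits ranged from 0 to 357 higher and 0 to 404 lower, the highest counts being those without WT 3. Lower calls numbered 0 with a pseudocount of 0.1, 14 with a pseudocount of 10, 0 with no filter and 0 with a mean of at least 100. Leave-one-out calls ranged from 0 to 6 for the protease list, 0 to 3 for inhibitors, 0 to 4 for mesenchymal transition genes, 0 to 11 for contractile genes and 0 to 2 for neighbours of Prss23. Small differences changed sign: Prss35 ranged from -0.63 without WT 3 to 0.29 without WT 1, and Dnm3os from -0.29 without WT 1 to 0.13 without WT 2, with 0.05 without WT 3 and 0.05 without TSP2KO 2. The cause of these shifts was not tested.

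Replicate numbers were shared between the groups, but same-numbered libraries deviated in opposite directions (correlations of -0.42, -0.25 and -0.39), so the numbers were not taken as pairs. With the replicate block, 0 genes were called lower and 0 higher, and the differences of 2.22 for Prss23os, 1.89 for Prss23 and 0.33 for the ratio were the same by construction. The planned edgeR test was not run because whole reads were not recovered. Depth limits Prss23os more than Prss23, with about 70.8 against 6521 reads in the lowest library of each.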

Other observations

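Of 15 genes named Prss in the table, 6 had a mean of at least 10, and Prss23 had the highest level per kilobase of exon, 2679 normalised reads over all libraries against 24.7 for Prss35. Prss8, a membrane-anchored protease of epithelia, had 1.55, 0.392 and 64.8 normalised reads in WT 1, 2 and 3 and 23.0, 8.95 and 0 in TSP2KO 1, 2 and 3. It was high in WT 3, TSP2KO 1 and TSP2KO 2, the libraries with high summed keratinocyte markers (43620, 15290 and 13828), and low in WT 1, WT 2 and TSP2KO 3 (1747, 588 and 651). Prss23 and Prss23os were both highest in TSP2KO 3, and the part of keratinocytes in their values was not tested. Prss8 was singled out after its values were seen.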
